A study of Homo sapiens with 2 samples.

Results

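The HOX gene clusters were examined in ATAC-seq data from 293T cells, a line derived from human embryonic kidney and expressing the large T antigen of SV40. In ATAC-seq the Tn5 transposase cuts and tags DNA that nucleosomes leave exposed, so that reads accumulate over accessible chromatin and peaks mark accessible sites. Methylglyoxal (MGO) is a reactive by-product of glycolysis that forms adducts on proteins, histones among them, and the comparison addresses how accessibility differed after exposure to it. The lists analysed here hold 1 library of 293T cells given 0.5 mM MGO for 12 h and 1 library of control 293T cells, each from 50000 cells. The methods also derive consensus peaks, which takes replicates, so the study may hold more libraries than those analysed here. The control is labelled PBS in one place, and the treatment protocol describes only fresh medium for it, so the descriptions differ. With 1 library per condition analysed, no test between conditions was possible, and a difference between the lists cannot be told apart from a difference between libraries. Intervals given below cover counting error only.

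All 39 protein-coding genes of the HOXA, HOXB, HOXC and HOXD clusters were taken from GENCODE 44 by name, out of 20033 protein-coding genes. All deposited peaks within 1000 bp of a transcription start site (TSS) of a HOX gene were used, as were those between the outermost genes of each cluster and in 100 kb on either side. Of 36142 deposited control peaks and 22884 deposited MGO peaks, 58 and 41 met this rule, of which 31 and 24 lay at a HOX TSS. The deposited measurements of a peak were as follows. The fold enrichment is its read density over the background of its own library, the −log10 p is the strength of that enrichment, and the −log10 q is the same after correction for multiple testing. The authors equalized depth by random subsampling, but the number of reads kept is not known from the lists. A peak's absence means that the caller did not place one there and does not show that the DNA was closed.

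HOX genes encode homeodomain transcription factors that set the identity of body segments along the head-to-tail axis. The clusters arose by duplication, and genes at the same position in different clusters form paralog groups, numbered 1 to 13. Genes of low number act early and towards the head, and genes of high number act late and towards the tail. Polycomb complexes keep the clusters silent where they are not used, trithorax proteins maintain their expression, and CTCF separates active from silent parts of a cluster. The members are therefore described below by cluster and paralog group.

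The upstream sequences of 6 HOX genes are shown first, because their peaks carry the comparisons below. HOXA9 had a peak just upstream of its start site in the control list alone. HOXA13 and HOXD13 had peaks of lower −log10 p in the MGO list, HOXD1 and HOXD8 had peaks of higher −log10 p, and HOXD12 had none in either list. These 6 were chosen after their values were seen. The sequences are from the RefSeq promoter table (GRCh38.p14), which matched 19 of the 39 HOX genes, and each runs 5′ to 3′ on the strand of the gene and ends at or just before the start site. Capitals mark matches on either strand to the letters TATAAA of the TATA box, to the CCAAT box, and to GGNGGCAG, a part of the CTCF motif.
HOXA9: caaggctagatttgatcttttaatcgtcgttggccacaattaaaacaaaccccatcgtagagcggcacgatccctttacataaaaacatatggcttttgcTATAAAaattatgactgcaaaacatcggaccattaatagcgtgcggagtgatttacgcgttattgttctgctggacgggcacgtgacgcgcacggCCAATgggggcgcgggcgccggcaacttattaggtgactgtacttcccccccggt
HOXA13: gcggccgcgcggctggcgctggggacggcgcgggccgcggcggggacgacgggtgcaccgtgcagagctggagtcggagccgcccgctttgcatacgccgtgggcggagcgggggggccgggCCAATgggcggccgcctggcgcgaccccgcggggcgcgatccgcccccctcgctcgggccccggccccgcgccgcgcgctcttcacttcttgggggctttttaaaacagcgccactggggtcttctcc
HOXD1: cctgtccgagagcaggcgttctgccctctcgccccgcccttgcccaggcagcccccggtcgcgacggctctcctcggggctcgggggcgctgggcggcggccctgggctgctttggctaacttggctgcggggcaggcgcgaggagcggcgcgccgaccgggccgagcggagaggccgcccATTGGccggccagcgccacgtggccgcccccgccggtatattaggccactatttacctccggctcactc
HOXD8: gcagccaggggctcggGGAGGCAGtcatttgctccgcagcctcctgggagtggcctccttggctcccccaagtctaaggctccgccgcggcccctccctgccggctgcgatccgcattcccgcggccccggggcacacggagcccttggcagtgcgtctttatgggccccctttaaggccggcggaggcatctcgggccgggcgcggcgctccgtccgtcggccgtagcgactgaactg
HOXD13: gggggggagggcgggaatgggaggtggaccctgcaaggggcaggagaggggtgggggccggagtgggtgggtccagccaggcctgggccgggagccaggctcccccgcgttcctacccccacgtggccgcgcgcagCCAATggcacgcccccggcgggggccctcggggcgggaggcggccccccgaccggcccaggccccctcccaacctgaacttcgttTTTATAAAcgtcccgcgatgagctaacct
HOXD12: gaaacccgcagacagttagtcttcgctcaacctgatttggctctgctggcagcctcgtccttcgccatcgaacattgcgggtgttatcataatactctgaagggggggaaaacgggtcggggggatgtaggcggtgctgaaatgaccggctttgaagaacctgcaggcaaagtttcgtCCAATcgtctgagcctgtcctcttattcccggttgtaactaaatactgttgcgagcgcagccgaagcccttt

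The HOXA9 sequence is chr7:27165538-27165787 on the minus strand and the HOXA13 sequence chr7:27200092-27200341 on the minus strand. On the plus strand of chromosome 2 lie the sequences of HOXD1 (chr2:176188418-176188667), HOXD8 (chr2:176129455-176129693), HOXD13 (chr2:176092471-176092720) and HOXD12 (chr2:176099545-176099794). The control peak covered 229 of the 250 HOXA9 bases and no MGO peak covered any. The HOXA13 sequence lay wholly in the control peak, and 233 of its bases lay in the MGO peak. All bases shown for HOXD1, HOXD8 and HOXD13 lay in peaks of both lists. HOXA9 was the least GC-rich of the 6, at 48.8%, beside 53.2% for HOXD12, 72% for HOXD8, 74% for HOXD13, 74.8% for HOXD1 and 78% for HOXA13.

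A HOX TSS peak was found in both lists for 24 of the 39 genes, in the control list alone for 3 (HOXA9, HOXB8 and HOXC8), in the MGO list alone for 1 (HOXA6), and in neither for 11. The genes with none were HOXA2, HOXA7, HOXA11, HOXB1, HOXB5, HOXB6, HOXB7, HOXC12, HOXD4, HOXD9 and HOXD12. Thus a control peak was present at 27 of the 39 and an MGO peak at 25, and over all protein-coding genes the shares were 67.3% and 63.9%. Both lists had a peak at 62.6% of all protein-coding genes, the control list alone at 4.72% and the MGO list alone at 1.26%. The HOX counts were close to these shares, so with all deposited peaks kept the number of HOX genes with a peak does not set the clusters apart. With a q value under 0.01, 25 HOX genes had a control TSS peak and 20 an MGO TSS peak. No share over all genes was taken at that limit.

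By cluster, peaks in both lists were found for 6 of 11 HOXA genes, 5 of 10 HOXB genes, 7 of 9 HOXC genes and 6 of 9 HOXD genes. HOXD was without any gene whose state differed between the lists, and the other clusters had 1 or 2 such genes each. By paralog group, 9 of the 12 genes of groups 1 to 4 and 11 of the 16 genes of groups 9 to 13 had a peak in both lists. Of the 11 genes of the middle groups 5 to 8, 4 did, while a control peak was present at 6 and an MGO peak at 5. These classes are small, and no test was made between them.

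Several of these calls rest on a start site other than that of the canonical transcript, because HOX transcripts overlap and share sequence. When the canonical start site alone was used, a control peak was present at 23 HOX genes and an MGO peak at 19, beside 63.3% and 60.3% of all protein-coding genes. All 19 also had a control peak. The other 4 (HOXA9, HOXB2, HOXC6 and HOXC8) had a control peak alone. Among all protein-coding genes with a control peak at the canonical start site, 6.71% had no MGO peak there.

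**Figure D1:**
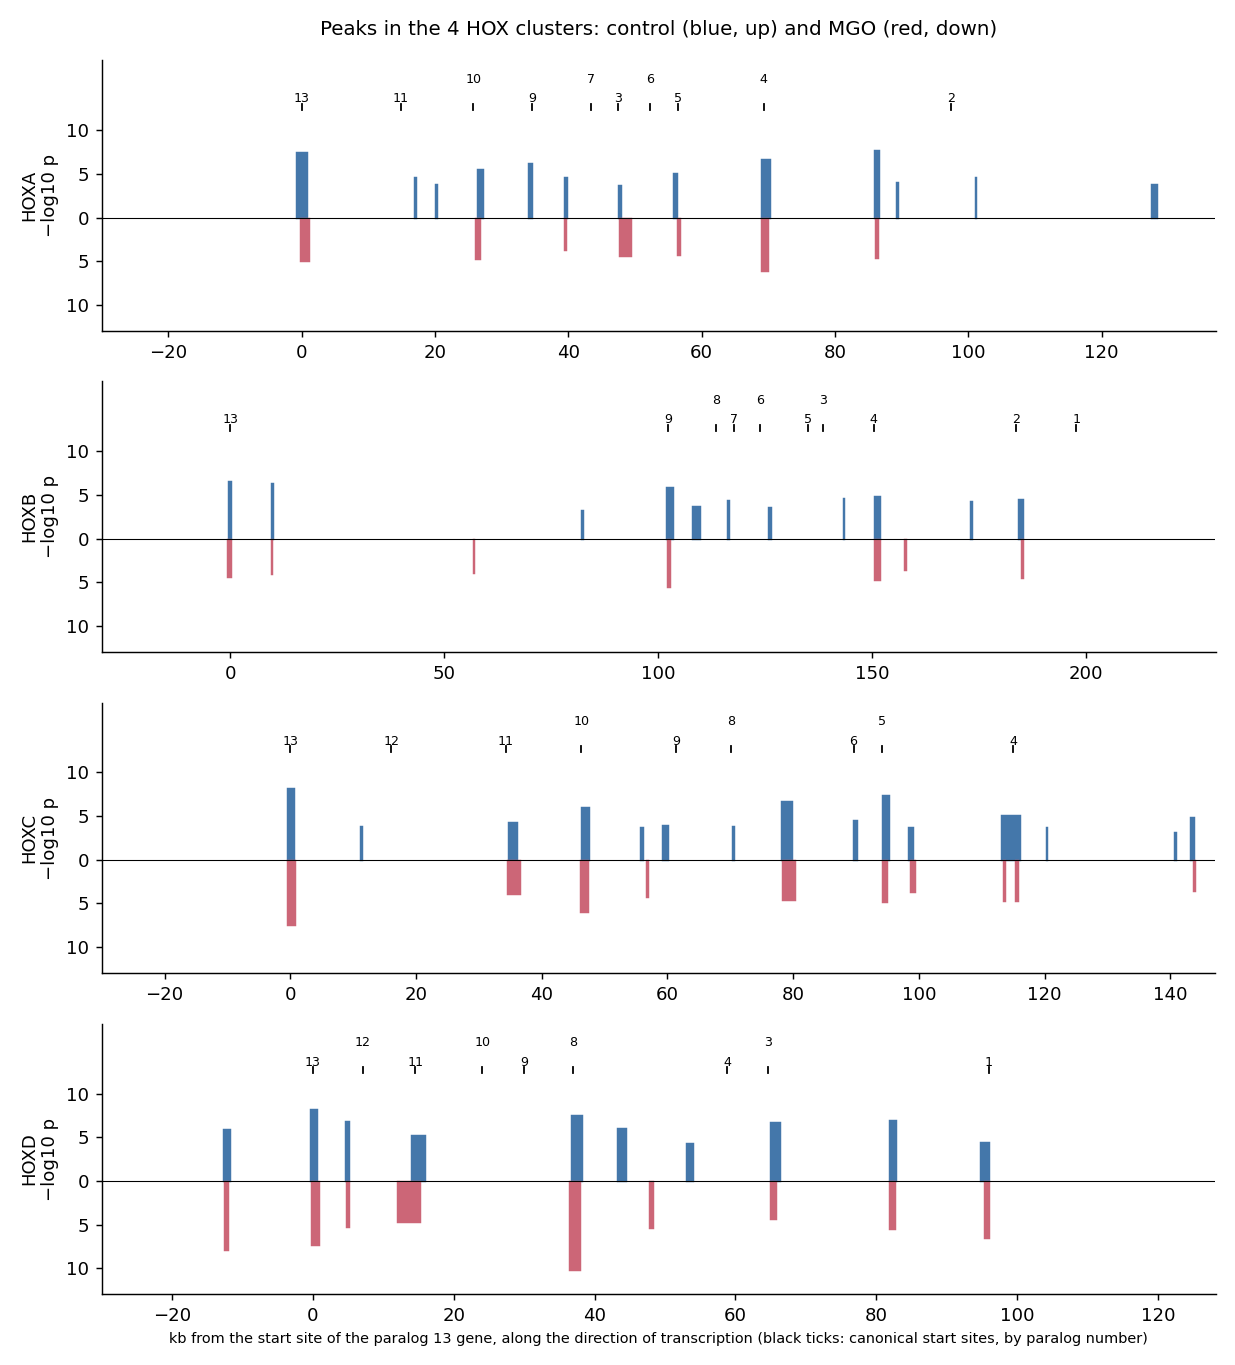
Peaks in the 4 HOX clusters, with 1 panel per cluster. The x axis is the distance in kb from the start site of the paralog 13 gene along the direction of transcription, with 30 kb beyond the outermost genes (the farther flanks are not drawn), and the y axis is −log10 p, drawn upwards for control peaks (blue) and downwards for MGO peaks (red). Bar widths are peak widths, and black ticks mark canonical start sites with their paralog numbers (1 gene and its peaks are not drawn). Most tall bars have a counterpart, and the tallest MGO bar, at HOXD8, reaches 10.2.

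HOXA9, a posterior group gene, had the strongest control peak at a canonical HOX start site without any overlapping MGO peak. It was a peak of 615 bp at chr7:27165559-27166173 with a −log10 p of 6.28 and a fold enrichment of 2.57, which began 22 bp upstream of the start site. No MGO peak lay within 1000 bp of any of its 7 start sites. HOXC8 had a control peak of 312 bp at chr12:54009158-54009469, 173 bp downstream of its start site, with a −log10 p of 3.82 and a fold enrichment of 2.48. This peak was the narrowest at any HOX TSS in either list and did not reach a q value of 0.01.

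HOXB8 had a control peak at chr17:48612120-48612608 with a −log10 p of 4.38 and a fold enrichment of 2.42. It lay 2684 bp from the canonical start site, at the start site of another transcript, and the canonical start site had no peak in either list. HOXA6 was the reverse case. Its only TSS peak was an MGO peak at chr7:27150741-27152553, with a −log10 p of 4.43 and a fold enrichment of 2.25, which lay 2967 bp from the canonical start site. That peak also served the canonical HOXA3 start site and overlapped a narrower control peak, so the single MGO-only call reflects a wider peak and not a separate site.

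At HOXB2 and HOXC6 the canonical start site and the gene gave different calls. At HOXB2 a control peak of 1123 bp had a −log10 p of 4.57, and the MGO peak that overlapped it was 524 bp wide with a −log10 p of 4.49. The MGO peak ended short of the 1000 bp window around the canonical start site, so HOXB2 lost its canonical call through peak width. At HOXC6 the canonical start site lay in a control peak at chr12:54028382-54028927 with a −log10 p of 4.61, and no MGO peak overlapped it. HOXC6 and HOXC9 counted as having both peaks through a distant shared start region, where the control peak (chr12:53994396-53994888, −log10 p of 3.75) and the MGO peak (chr12:53995393-53995781, −log10 p of 4.29) did not overlap.

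In HOXB, HOXC and HOXD the strongest control TSS peak lay at the paralog 13 gene. HOXA13, at the posterior end of HOXA, had a −log10 p of 7.46 in the control list (chr7:27199354-27200905, fold enrichment 3.12) and of 5.01 in the MGO list (chr7:27198993-27200324, fold enrichment 2.55). Both values were thus lower in the MGO list.

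HOXB13 had the strongest control TSS peak of HOXB, with a −log10 p of 6.59 and a fold enrichment of 3.39 (chr17:48728554-48729126). In the MGO list the values were 4.43 and 2.72, over a wider peak (chr17:48728516-48729385). HOXB1, at the opposite end, had no peak in either list. HOXB13 is separated from the rest of its cluster by a long stretch without HOX genes.

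HOXC13 led HOXC in both lists. Its −log10 p was 8.21 in the control list (chr12:53938386-53939394, fold enrichment 3.33) and 7.43 in the MGO list (chr12:53938362-53939645, fold enrichment 3.25). HOXC4, the anterior end, had the widest control TSS peak of all HOX genes, 3005 bp at chr12:54051947-54054951 with a −log10 p of 5.08. In the MGO list this region held 2 narrow peaks, of 297 bp (chr12:54052206-54052502, −log10 p of 4.66) and of 529 bp (chr12:54054102-54054630, −log10 p of 4.72). Both lay within the control peak, but most of its length was covered in the control list alone. The canonical start site lay in the control peak and in neither MGO peak, 267 bp from the nearer one.

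HOXD13, required for limb digits, had a −log10 p of 8.28 in the control list (chr2:176092293-176093370, fold enrichment 2.97) and of 7.30 in the MGO list (chr2:176092456-176093518, fold enrichment 2.86). HOXD13 ranked above 48.64% of the control peaks at protein-coding TSSs and above 49.92% of the MGO peaks there, so its rank hardly changed. The same ranks were 48.15% and 51.29% at HOXC13, 41.65% and 20.15% at HOXA13, and 33.75% and 12% at HOXB13. HOXD1, at the anterior end, had the higher −log10 p in the MGO list. Its −log10 p was 4.47 in the control list (chr2:176187504-176188681, fold enrichment 2.85) and 6.49 in the MGO list (chr2:176188043-176188767, fold enrichment 3.33), although the MGO peak was the narrower. Its rank rose from above 12.2% of the control peaks at protein-coding TSSs to above 40.8% of the MGO peaks there.

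HOXD8 had the strongest MGO peak of all HOX genes, and its −log10 p was 7.54 in the control list (chr2:176129383-176131002, fold enrichment 2.87) and 10.2 in the MGO list (chr2:176129153-176130684, fold enrichment 3.61). It ranked above 42.5% of the control peaks at protein-coding TSSs and above 75.7% of the MGO peaks there. HOXD8 and, further below, the other genes whose peaks were stronger in the MGO list were singled out after their values were seen.

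Over the 19 HOX genes with a canonical TSS peak in both lists, the MGO peak had the lower −log10 p at 16 and the higher at 3, which were HOXD8, HOXD1 and HOXA3. HOXA3 had a −log10 p of 3.75 in the control list and 4.43 in the MGO list, with peak widths of 432 and 1813 bp. That control peak did not reach a q value of 0.01. At another HOXA3 start site the stronger control peak (chr7:27113485-27114153) went the other way. Its −log10 p was 7.76 in the control list and 4.61 in the MGO list, with fold enrichments of 3.01 and 2.60. At the canonical start sites the fold enrichment was lower in the MGO list at 15 genes and higher at 4 (HOXD8, HOXD1, HOXA3 and HOXA4). The peak was narrower at 14 genes and wider at 5 (HOXA3, HOXB13, HOXC11, HOXC13 and HOXD11). The median difference, MGO minus control, was −0.69 in −log10 p, −0.077 in fold enrichment and −88 bp in width.

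**Figure D2:**
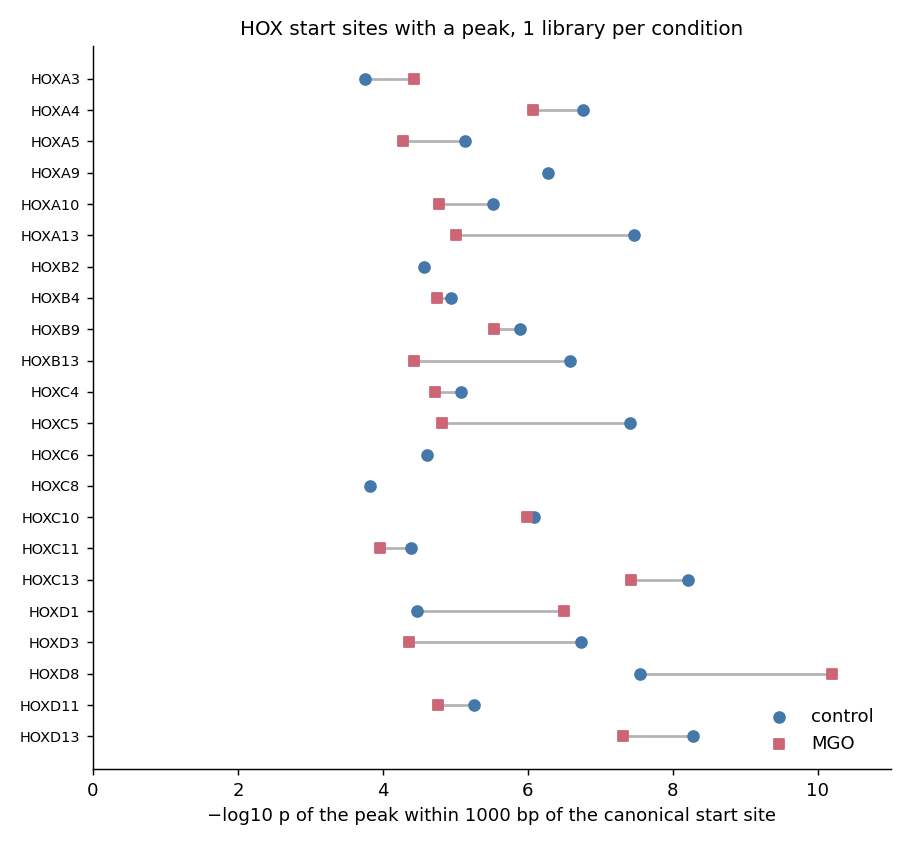
The −log10 p of the peak at the canonical start site of the HOX genes with one (1 gene is not drawn), with the control peak in blue and the MGO peak in red. Where both are drawn, the MGO value is higher at HOXA3, HOXD1 and HOXD8 and lower at the other genes. HOXA9, HOXB2, HOXC6 and HOXC8 have a control value alone.

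The same count was made for all protein-coding promoters, HOX genes among them, within the range of the HOX control −log10 p. The distribution within that range was not matched. HOX TSS peaks that paired with 1 peak of the other list gave 22 pairs, in which the MGO peak had the lower −log10 p in 19 (86.4%) with a median difference of −0.718. Among 5487 pairs at protein-coding TSSs within the same range of control −log10 p (3.70 to 9.08), 64.5% were lower, with a median difference of −0.572. The MGO peak was narrower in 68.2% of the HOX pairs and in 67.3% of the pairs within the range. The fold enrichment was lower in the MGO list in 77.3% of the HOX pairs and in 69.0% of the pairs within the range. Its median difference was −0.0821 in the HOX pairs and −0.184 in the pairs within the range. Both measures were thus lower in a larger share of the HOX pairs. The median difference at HOX genes was larger in −log10 p and smaller in fold enrichment. Over all 11589 pairs at protein-coding TSSs, most of them stronger, 77.5% had the lower −log10 p, with a median difference of −1.72. No test was made of these differences, and many of the HOX peaks are neighbours.

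HOX TSS peaks were weak in both lists compared with those of other genes. Their −log10 p ran from 3.70 to 9.08 in the control list with a median of 5.52, where the median of all protein-coding TSS peaks was 8.45. In the MGO list it ran from 3.63 to 10.2 with a median of 4.76, where the median of all was 7.31. Of the 31 control peaks 30 lay below the median of all TSS peaks, and of the 24 MGO peaks 22 did. The median HOX peak was stronger than 23.1% of the TSS peaks of the control list and 16.5% of those of the MGO list.

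The fold enrichment was low too, with a median of 2.75 in the control list and 2.56 in the MGO list, where all protein-coding TSS peaks had medians of 3.53 and 3.28. The median width was 1123 bp in the control list beside 1067 bp for all, and 853 bp in the MGO list beside 990 bp. A q value under 0.01 was reached by 26 of 31 HOX TSS peaks of the control list and 19 of 24 of the MGO list, and by 90.4% and 88.0% of all protein-coding TSS peaks. In the control list HOX TSS peaks were thus weaker than others at a similar width. With peaks of a −log10 q of at least 5 alone, HOX genes with a control TSS peak numbered 5 and those with an MGO TSS peak numbered 1, which was HOXD8.

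Of the 31 control peaks at HOX TSSs, 23 (74.2%, 95% Wilson interval 56.8 to 86.3) overlapped an MGO peak, and over all protein-coding TSSs 87.7% did. The 8 that did not were at HOXA9, at the most upstream start site of HOXA10, at HOXB3, HOXB8, HOXC8 and HOXD3, at the canonical start site of HOXC6, and at the start region that HOXC6 and HOXC9 share. Their −log10 p lay between 3.75 and 6.28. In the other direction 23 of 24 MGO peaks (95.8%) overlapped a control peak, and 96.4% did over all protein-coding TSSs.

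Retention followed peak strength. When the control peaks of all protein-coding TSSs were divided into 10 bins of equal size by −log10 p, 39.2% of the weakest bin overlapped an MGO peak, 67.1% of the next and 84.3% of the one after. HOX TSS peaks fell in the 6 weakest bins, and 14 of 31 in the weakest 2. Averaged over the bins in which the HOX peaks lay, the share for all protein-coding TSS peaks was 76.1%, or 23.6 peaks where 23 were retained. At similar −log10 p, then, the share for all protein-coding TSS peaks lay within the counting interval of the retained share of HOX TSS peaks.

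**Figure D3:**
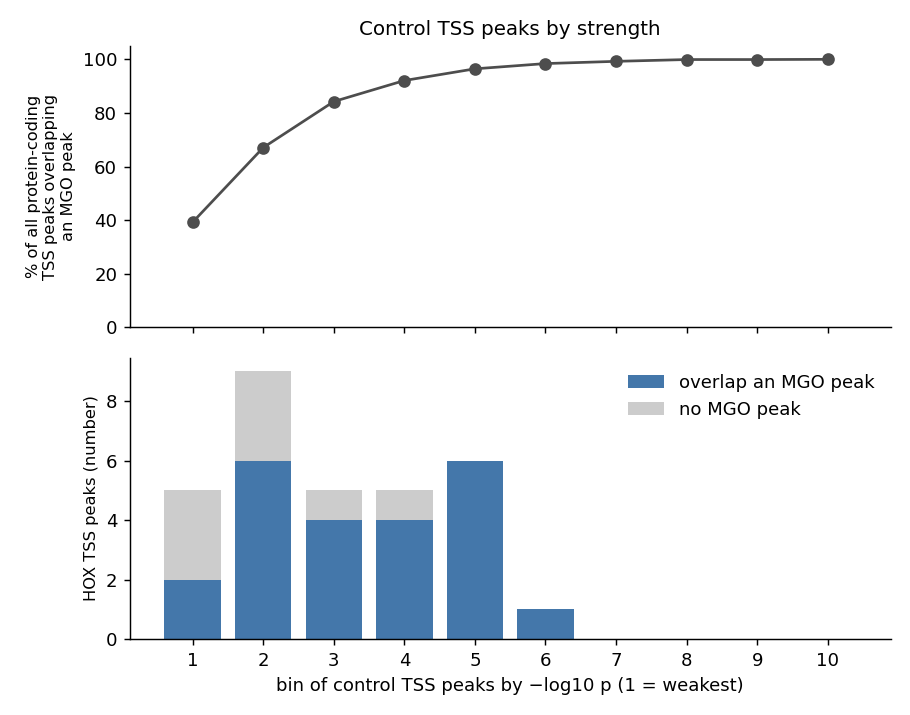
Control peaks at TSSs in 10 bins of equal size by −log10 p, from the weakest (1) to the strongest (10). The upper panel gives the share of all protein-coding TSS peaks that overlap an MGO peak, which rises from 39.2% in the weakest bin to 100% in the strongest; the lower panel gives the number of HOX TSS peaks, with those overlapping an MGO peak in blue and the rest in grey, and none lies above bin 6.

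The position of HOX peaks differed from that of other promoters. The canonical start site itself lay in a control peak for 16 of 39 HOX genes (41.0%) and in an MGO peak for 13 (33.3%), where the shares over all protein-coding genes were 59.1% and 55.7%. At 500 bp upstream the shares were lower at HOX genes (12.8% in the MGO list beside 24.6% over all genes). At 1000 bp downstream the order was turned, since 28.2% of HOX genes were covered in the control list beside 8.75% of all genes, and 7 of 39 in the MGO list beside 7.56%. At 500 bp downstream HOX genes were covered in 35.9% of cases in both lists. Peak coverage thus extended further downstream at HOX genes than over all genes in both lists. At 1500 bp upstream it was also higher at HOX genes. The shares there were 7.69% beside 2.19% in the control list and 5.13% beside 1.69% in the MGO list. Any peak at a position was counted, so peaks of neighbouring start sites are included, and their part was not tested.

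**Figure D4:**
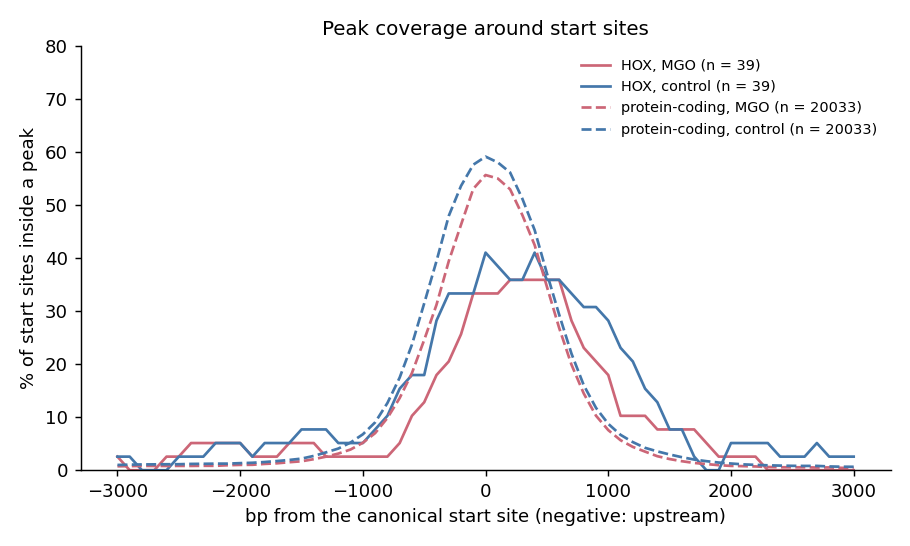
Share of canonical start sites (y axis, %) at which a peak covers the position given on the x axis in bp (negative values are upstream), for 39 HOX genes (solid) and 20033 protein-coding genes (dashed) in the control (blue) and MGO (red) lists. The HOX curves are lower at the start site, at 41.0% and 33.3%, and extend further downstream than the dashed curves.

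Over the whole clusters, from the first to the last HOX gene, 45 control peaks and 32 MGO peaks were found in 522711 bp. This is 8.61 and 6.12 peaks per 100 kb, where the genome had 1.15 and 0.725. Of the cluster peaks 31 and 24 lay at a HOX TSS, and the genome values were not matched for the density of start sites. The higher density therefore does not set the clusters apart from other stretches rich in start sites. The ratio of MGO to control peaks was 0.711 (exact binomial interval 0.437 to 1.14), beside 0.630 over the genome, and the ratio of covered lengths was 0.706 (28824 and 40819 bp), beside 0.641. The mean peak width was 953 bp in the control list and 951 bp in the MGO list. The clusters thus lost peaks in about the proportion of the whole list, and the interval includes both a larger loss and no loss.

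The 4 clusters differed in how much of them was covered. HOXD (chr2:176092721-176190907) held 9 control and 8 MGO peaks, with 10.9% and 9.16% of its length covered. HOXC (chr12:53938831-54056030) held 12 and 9 peaks, with 10.8% and 7.76% covered. HOXA, on chromosome 7, held 13 and 8 peaks, with 7.74% and 6.26% covered. HOXB (chr17:48528526-48728750), the longest, held 11 and 7 peaks, with 4.59% and 2.01% covered. The ratio of covered lengths was lowest in HOXB, at 0.437, and lay between 0.719 and 0.842 in the other clusters, but each cluster's counts are small.

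Of the 45 control peaks in the clusters, 27 (60.0%, interval 45.5 to 73.0) overlapped an MGO peak, and 28 of the 32 MGO peaks there (87.5%) had a control counterpart. Over all peaks of the lists these shares were 49.7% and 78.9%. Within the clusters 4 of the 14 control peaks away from a HOX TSS were retained (28.6%, interval 11.7 to 54.7). The difference from the HOX TSS peaks was not tested. Over the genome, too, control peaks at protein-coding TSSs overlapped an MGO peak more often (87.7%) than all control peaks did (49.7%). A lower share away from TSSs is thus not particular to the clusters. The 4 retained peaks lay between genes or in the bodies of noncoding genes. One, between HOXD13 and HOXD12 (chr2:176097240-176097865), had a −log10 p of 6.81 in the control list and 5.29 in the MGO list. Another, between HOXB13 and HOXB9 (chr17:48718753-48719214), had 6.33 and 4.08. The strongest MGO peak in the clusters without a control counterpart lay in a HOXD3 intron (chr2:176140388-176140978), with a −log10 p of 5.44.

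Long noncoding RNA genes start throughout the clusters, several of them from the same region as a HOX gene on the opposite strand. Of 28 with a TSS inside the clusters, 12 had a peak in both lists, 5 in the control list alone, 2 in the MGO list alone and 9 in neither. Over all 18866 lncRNA genes the shares were 21.5% in both, 4.13% in the control list alone and 1.02% in the MGO list alone. All 12 with peaks in both lists, both of those in the MGO list alone and 1 of the 5 in the control list alone share their peak with a HOX TSS, so they are not separate observations. HOTTIP shares the HOXA13 peak, HOTAIR the HOXC11 peak and HAGLR the HOXD1 peak. For HOTAIR, known for binding Polycomb proteins, the −log10 p was 4.38 in the control list and 3.96 in the MGO list. Among those in the control list alone were HOXD-AS2, with a −log10 p of 6.05 at a peak it shares with HOXD3, HOXC-AS1 with 3.97 and HOXB-AS3 with 3.62. HOXC-AS2 had an MGO peak alone, with 4.29, which is the peak given above for HOXC6 and HOXC9.

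In the 100 kb on either side of the clusters, 13 control peaks and 9 MGO peaks were found, or 1.63 and 1.13 per 100 kb. Of the control peaks 8 (61.5%, interval 35.5 to 82.3) overlapped an MGO peak. Of 8 pairs, the MGO peak was narrower in 7 and had the lower fold enrichment in 6 (median difference −0.211), while the −log10 p was lower in 3, with a median difference of 0.0878. LNPK, which shapes junctions of the endoplasmic reticulum and lies beyond HOXD13, had a −log10 p of 11.9 in both lists. MTX2, a mitochondrial import gene beyond HOXD1, had 7.65 in the control list and 8.34 in the MGO list. TTLL6, a tubulin-modifying enzyme beyond HOXB13, had 6.26 and 5.74. EVX1 and EVX2, homeobox genes at the posterior ends of HOXA and HOXD, and SKAP1 and SKAP2 had no TSS peak in either list. A peak over EVX2 itself, away from its start site (control peak chr2:176079937-176080873), had a −log10 p of 5.96 and a fold enrichment of 3.39 in the control list, and of 7.94 and 3.78 in the MGO list.

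Sequence features of HOX TSS peaks were read from the genome under each peak. The median GC content was 60.6% in the control list (range 47.5 to 72.5) and 64.4% in the MGO list, where all protein-coding TSS peaks had 64.3% and 66.0%. The median ratio of observed to expected CpG was 0.735 and 0.753, beside 0.777 and 0.799. HOX TSS peaks were thus somewhat poorer in GC and in CpG than other TSS peaks. In both sets the MGO list had the higher GC median.

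In the 250 bases before the start site, 26 RefSeq promoter windows of 19 HOX genes were searched on both strands and set beside all 34943 windows of that table. The median GC content was 58.8% in the HOX windows and 58% in all, so the lower GC content of the HOX peaks was not seen in these windows. The CCAAT box was found in 17 HOX windows (65.4%) and 32% of all, and the TATA box in 5 (19.2%) and 10.8%. Both boxes are present in the HOXA9 and HOXD13 sequences printed above, and that of HOXD13 begins 27 bases before the start site. The part of the CTCF motif was found in 15.4% and 13.4%. The homeodomain letters TAATTA were found in 7.69% and 4.35%, and those bound by PBX with HOX proteins, TGATNNAT, in 11.5% and 6.49%. The AP-1 letters TGANTCA were in no HOX window and in 6.59% of all. Neighbouring windows of a gene overlap, motifs can overlap each other, and a match is not evidence of binding.

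The regulators and partners of HOX proteins were counted in the same way. Of 55 genes in 6 lists, 43 had a TSS peak in both lists, 3 in the control list alone, none in the MGO list alone and 9 in neither, where 62.6% of all protein-coding genes had both, 4.72% a control peak alone and 1.26% an MGO peak alone. Of the 9 TALE cofactors, which bind DNA with HOX proteins, 7 had both, MEIS1 among them, and PBX2 and MEIS3 had neither. Of 15 Polycomb genes 12 had both. Of 9 trithorax and demethylase genes 8 had both, and KDM6B, which removes the Polycomb mark, had a control peak alone with a −log10 p of 5.14. All 6 genes for insulation had both.

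Of 8 genes for retinoic acid, the signal that activates anterior HOX genes, 6 had both, and CYP26B1, which degrades it, had a control peak alone with a −log10 p of 4.80. Of 8 ParaHox and EVX genes, the closest relatives of HOX genes, 4 had both and 4 (CDX1, CDX4, EVX1 and EVX2) had neither. The genes PBX2, RING1, PCGF2 and RXRB had neither, and the windows around their start sites have near-identical copies on alternate sequences of the genome build. Reads that map to several places were removed before peaks were called. No window of the 39 HOX genes has such a copy. The part of these copies in the absence of peaks was not tested.

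The label of the cells was checked against markers in the same lists. Of 8 genes known to be expressed in 293T cells, 7 had a TSS peak in both lists, and LHX1, whose window also has a copy, had none. A peak in both lists was present at 62.6% of all protein-coding genes, so this count alone says little. Of 8 genes of blood, liver, muscle and pancreas, 1 had peaks in both lists, 6 had none, and MYOD1 had a control peak alone with a −log10 p of 6.30. The window of PTPRC, among the 6 with none, has a copy as well. Peaks show accessibility and not expression, so the check is weak.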

How the data were processed

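ATAC-seq libraries of 50000 control and 50000 MGO-treated 293T cells (1 each) were analysed. Per the paper's methods and the submitters' processing notes, the authors aligned reads to GRCh38.p12 with BWA-MEM 0.7.15, used Picard (2.16.0 in the notes) to discard mitochondrial reads and those mapping to several places, equalized depth by random subsampling, and called broad peaks per sample with MACS2 outside blacklisted regions. Its version is not given in the sources used here. For each peak the authors deposited a fold enrichment (a ratio), a −log10 p, a −log10 q and a score, of which the score was not used. All deposited peaks were kept, which reach a q value of 0.0986 in the control and 0.0988 in the MGO list, above the 0.01 used in the methods. The lists hold no read counts, and the number of reads left after subsampling is not given in the sources used here. Consensus peaks from an Irreproducible Discovery Rate step and any further libraries were not analysed here.

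Genes and TSSs came from GENCODE 44, and background counts were made on chromosomes 1 to 22, X and Y. Overlap was at least 1 bp. Shares have 95% Wilson intervals and ratios exact binomial intervals. The named genes were, per cluster, the gene of the strongest control TSS peak, genes whose state differed and the outermost genes, and then genes starting in the clusters or flanks. Some genes that this rule names are counted, but their values are not reported here. Members and lists were chosen with earlier results of these data known. Alternate copies were aligned with minimap2 2.31 (at least 500 bp and 95% identity). Python 3.11.15, numpy 2.4.6, pandas 2.3.3, scipy 1.17.1 and matplotlib 3.10.9 were used, and the overlap counts were tested on simulated data and checked against bedtools. Alternatives were stricter q and fold limits, equal peak numbers, larger overlaps, other windows and flanks, and 1 TSS per gene.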

Additional observations from a re-analysis of the deposited data

How the results depend on the processing

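Of 47 alternative values, 31 moved by less than counting error or 1.5 times, 16 moved by more, and none changed direction. With a −log10 q of at least 5, 5 HOX genes had a control TSS peak, 1 an MGO peak and 1 both. The retained share was then 20% at HOX TSSs and 20% in the clusters (each 1 of 5, interval 3.62 to 62.4). In the flanks it was 100% (2 of 2, interval 34.2 to 100). These counts are too small to set the clusters and the flanks apart. In the clusters the ratios of MGO to control were 0.200 for peak number (1 and 5 peaks) and 0.328 for covered length. With a fold enrichment of at least 4, 0 HOX genes had a control peak, 0 an MGO peak and 0 both. The flanks then held 1 control peak, which was retained (100%, interval 20.7 to 100). That setting left no peak at a HOX TSS or in the clusters, so their shares and ratios have no value. With equal peak numbers the retained share was 78.1% in the clusters and 88.9% in the flanks, and the peak ratio was 1. With overlap of at least 50% of both peaks, 54.8% of HOX TSS peaks were retained, and with 1 TSS per gene 87.0%. The cause of these moves was not tested here. No paired analysis was possible because 1 library of each condition was analysed. Libraries could not be left out for the same reason, and without read counts it cannot be said how close an absent peak came to being called.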

Other observations

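Start sites with a near-identical copy on an alternate sequence of the genome build had fewer peaks throughout the lists. Among protein-coding genes, 911 had such a copy of the window of 1000 bp on either side of the canonical start site. A control peak was found at 24.5% of them (interval 21.8 to 27.4) and at 65.2% of the 19096 without a copy (interval 64.5 to 65.8). In the MGO list the shares were 21.4% and 62.2%. Genes with copies belong to particular families, such as those of the major histocompatibility complex, and the share that would have a peak otherwise was not measured. The observation was made after the data were seen.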
